A study of Mus musculus with 12 samples.

Results

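The genes described are 37 repair genes of the mouse: the BRCA1 and MRE11 end-processing factors, the genes that load and help the strand-exchange recombinase, the Fanconi anaemia genes, RecQ helicases and the MUS81 nuclease, the checkpoint kinases, and a pair of mismatch repair genes. They were chosen by name, and 37 of 37 were found in each of the 4 comparison tables the authors deposited, among 22552 rows in each stage table and 16394 in the knockout table. The tables compare primordial germ cells (PGCs), which later give rise to eggs or sperm, all from C57BL/6 embryos. Wild-type groups come from embryonic day 9.5 (E9.5, 2 libraries), E11.5 (2 libraries) and E13.5 (E13.5m, 3 libraries, and a further 3 titled WT with no sex in their labels). Tet1 -/- cells (Tet1-KO) were taken at E13.5 (2 libraries); Tet1 encodes an enzyme that oxidises methylated cytosine, and how the allele was made, or the cells were isolated, is not given in the sources used here. Another group, E13.5f, is named by a table and by the series design but by no sample title. Its values and those of the WT column in the knockout table differed over the 37 genes by a factor of 1.01 to 1.07, with a median of 1.04. Whether E13.5f and WT are the same libraries is not given in the sources used here, so results of these columns cannot be taken as independent.

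Homologous recombination copies an intact sister or homologous DNA molecule to mend a break: the MRN complex and CtIP start to resect the end, BRCA1, PALB2 and BRCA2 bring in the recombinase, and helicases and nucleases resolve the joined molecules. The Fanconi pathway handles crosslinks between DNA strands, with a core complex that marks the FANCI and FANCD2 pair with ubiquitin. Mismatch repair removes bases misplaced in replication. In mice, loss of several Fanconi genes is known to leave few germ cells, and recombination genes serve both dividing germ cells and, later, meiosis.

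The promoters of 4 of the 5 genes that passed a deposited test (Fance, Rad52, Fancg and Rad54l, the other being Nbn) are shown because those genes carry the results below. Each is the 250 bases before the annotated start, from RefSeq on GRCm38.p6, given 5′ to 3′ on the gene's strand. In these sequences capitals mark words searched for on both strands. Those of the E2F type, the family of factors that times cell cycle genes, were TTCCCGC, the related word TTGGCGC, as well as the related word TTCGCGC. The others were the E-box word CACGTG, bound by helix-loop-helix factors, together with the CCAAT box. On the reverse strand the first of them reads GCGGGAA in the sequences shown, the next reads GCGCCAA, while the last reads ATTGG there. Fance lies at chr17:28313280-28313529 on the plus strand, Rad52 at chr6:119902448-119902697 on the plus strand, Fancg at chr4:43010302-43010551 on the minus strand and Rad54l at chr4:116123691-116123940 on the minus strand.
Fance: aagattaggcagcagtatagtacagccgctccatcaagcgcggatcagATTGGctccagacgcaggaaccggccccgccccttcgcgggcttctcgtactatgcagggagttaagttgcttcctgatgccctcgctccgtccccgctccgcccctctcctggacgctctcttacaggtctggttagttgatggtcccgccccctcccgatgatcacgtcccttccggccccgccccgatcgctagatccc
Rad52: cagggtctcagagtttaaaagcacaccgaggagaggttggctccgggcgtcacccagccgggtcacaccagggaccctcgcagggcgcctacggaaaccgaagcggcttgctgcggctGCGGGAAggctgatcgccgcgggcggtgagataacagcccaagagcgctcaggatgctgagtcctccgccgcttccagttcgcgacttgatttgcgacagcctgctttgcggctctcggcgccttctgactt
Fancg: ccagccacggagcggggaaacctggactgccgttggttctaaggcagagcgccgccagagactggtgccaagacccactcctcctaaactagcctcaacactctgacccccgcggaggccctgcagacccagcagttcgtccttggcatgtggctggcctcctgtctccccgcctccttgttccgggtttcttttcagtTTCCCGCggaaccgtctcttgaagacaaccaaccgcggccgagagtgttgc
Rad54l: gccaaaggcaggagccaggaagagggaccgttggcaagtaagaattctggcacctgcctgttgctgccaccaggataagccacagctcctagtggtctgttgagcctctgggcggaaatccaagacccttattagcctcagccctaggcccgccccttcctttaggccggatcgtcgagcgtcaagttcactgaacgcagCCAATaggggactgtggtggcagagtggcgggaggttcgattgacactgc

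In these windows Fancg held TTCCCGC beginning 51 bases before the start and Rad52 held its reverse reading 132 bases before, whereas Fance and Rad54l held a CCAAT word at 202 and 50 bases. Promoters of 29 of the 37 genes were matched by symbol, and Exo1, Fancd2, Nbn, Rad50, Rad54b, Rbbp8, Wrn and Xrcc2 were not. Counted over a window of 300 bases (250 before and 50 after the start), 17 of 29 (58.6 percent) held at least 1 E2F-type word, beside 9.20 percent of 27025 genes. These promoters were also rich in CpG, with a median of 23 CpG pairs a window against 7 over all promoters, and among the 6359 genes with 23 or more CpG pairs 21.6 percent held an E2F-type word. CCAAT was in 17 of 29 (58.6 percent, against 41.1 percent of all and 32.7 percent of those 6359 genes) and CACGTG in 1 of 29 (3.45 percent, against 8.09 percent of all). The word TTGGCGC can overlap with the word TTCGCGC, as in Topbp1, where these begin 132 and 129 bases before the start.

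Of the 10 genes with an E2F-type word before the start, 4 are shown by the 41 bases around the word, for a core complex translocase, a recombinase paralogue, the ATR activator and the recombinase loader. They lie at chr12:65075532-65075572 on the plus strand (Fancm), chr11:87404999-87405039 on the minus strand (Rad51c), chr9:103305178-103305218 on the plus strand (Topbp1) and chr5:150522436-150522476 on the plus strand (Brca2). In these stretches capitals mark a single E2F-type word and no other searched word. The last bases of the overlapping TTCGCGC of Topbp1, which reads GCGCGAA there, are therefore in lower case. A match of letters is a description and not a binding site.
Fancm: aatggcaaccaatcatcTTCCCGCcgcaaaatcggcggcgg
Rad51c: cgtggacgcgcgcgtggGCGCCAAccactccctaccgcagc
Topbp1: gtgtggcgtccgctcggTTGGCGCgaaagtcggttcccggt
Brca2: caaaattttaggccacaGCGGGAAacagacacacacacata

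Each table holds 1 pooled FPKM value per group (fragments per length of transcript, scaled to the mapped total), so no spread between libraries can be given for a level, the order of levels between genes cannot be tested, and the sequencing depth is unknown. The labels do not say whether the libraries of a group stem from different embryos, and a deposited p-value therefore reflects differences among these libraries that may be technical. FPKM is relative to the RNA of the sample, and fewer expressing cells and less RNA per cell cannot be told apart. For levels across stages, the values were put on the scale of the E13.5f table.

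All 37 genes were read in every group, from 0.192 FPKM for Fancf at E13.5f to 118 FPKM for Rad54l in the WT column of the knockout table. At E11.5 the median was 17.2 FPKM. Rad54l, a motor protein that helps the recombinase, was highest at 83.2 FPKM, and it read 51.2 FPKM at E9.5, 109.9 FPKM at E13.5f and 99.8 FPKM at E13.5m. Fancf, an adaptor of the core complex, was lowest at 0.853 FPKM, with 0.306 FPKM at E9.5, 0.192 FPKM at E13.5f and 0.354 FPKM at E13.5m, and the SE of its log2 ratios was 1.43 or more.

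Values of the end-processing genes spread more within the BRCA1 group than within the MRN complex. The MRN complex, which senses and tethers broken ends, had similar levels for its 3 subunits at E11.5: Rad50 at 43.3 FPKM, Mre11a at 47.2 FPKM and Nbn at 51.7 FPKM. In the BRCA1 group the exonuclease gene Exo1 stood highest at 48.2 FPKM, Rbbp8 (CtIP) read 17.2 FPKM, the ubiquitin ligase partners Bard1 and Brca1 read 13.4 and 10.6 FPKM, and the helicase gene Brip1 was lowest at 7.66 FPKM.

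The recombinase loading group ran from Palb2, the bridge between BRCA1 and BRCA2, at 7.96 FPKM to Rad54l. Brca2 itself was at 9.50 FPKM, Xrcc2 at 9.42 FPKM, Xrcc3 at 14.6 FPKM and Rad51c at 45.2 FPKM, the last 3 being recombinase paralogues. Rad52, a strand-annealing protein gene, was at 22.8 FPKM and Rad54b at 23.3 FPKM.

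Within the Fanconi core complex Fancl, the ubiquitin ligase subunit, was highest at 55.5 FPKM and Fance, the subunit that contacts FANCD2, next at 37.8 FPKM. Fancb, Fancg and Fancc lay between 16.6 and 23.9 FPKM, Fancm at 5.90 FPKM and Fanca at 5.16 FPKM. The substrates of the complex were low as well, with Fancd2 at 9.38 FPKM and Fanci at 5.65 FPKM.

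The helicase and nuclease group held Eme1 (60.6 FPKM) and its partner Mus81 (20.98 FPKM), which cut joined DNA molecules, and the RecQ helicases Blm (10.5 FPKM) and Wrn (2.33 FPKM). The apical checkpoint kinases Atm (4.09 FPKM) and Atr (3.56 FPKM) were low, the effector kinases Chek1 (28.8 FPKM) and Chek2 (63.4 FPKM) were higher, and Topbp1, which activates ATR, was at 15.2 FPKM. Msh6, part of the mismatch sensor, read 63.8 FPKM and Pms2, part of the nicking complex, 27.6 FPKM.

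Across the 4 wild-type groups the highest level of a gene was a median of 1.94 times its lowest. Fancm varied least, 1.16-fold, and Fance most, 4.49-fold. Of the 37 genes 22 stayed within 2-fold. Among those at 1 FPKM or more in every stage 61.1 percent of 36 did so, beside 47.3 percent of 9242 genes. Over the same sets, E9.5 was the lowest stage for 63.9 percent of the 36 genes and 53.1 percent of all, and E13.5f the highest for 61.1 percent and 44.7 percent, so the tables as wholes lean the same way.

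**Figure D1:**
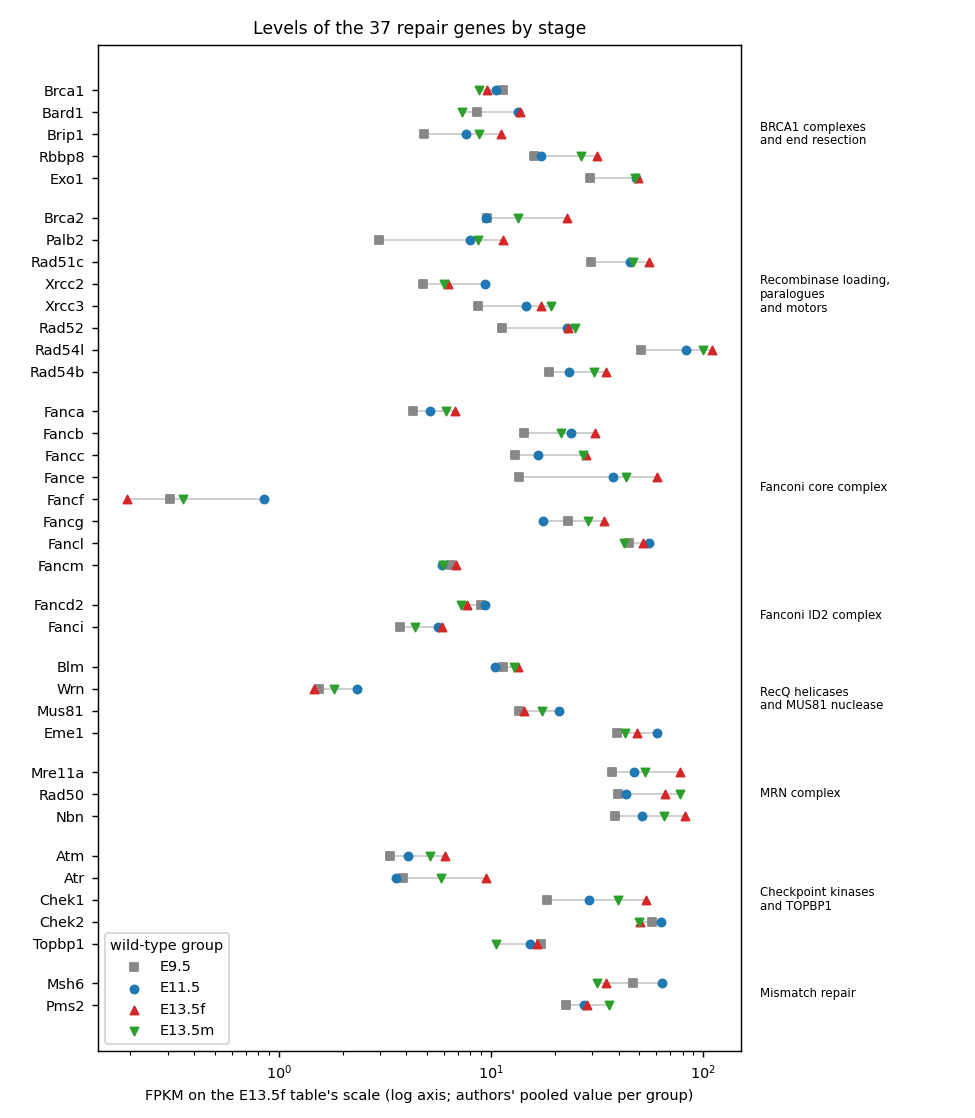
FPKM of each of the 37 repair genes (horizontal log axis, scale of the E13.5f table) in the 4 wild-type groups, with each point the authors' pooled value and the grey line joining the lowest and highest. Rad54l lies farthest right at 83.2 FPKM at E11.5, Fancf lies farthest left at 0.853 FPKM, and Fance has the longest line among the genes above 1 FPKM.

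Level went with transcript length among these genes. Spearman's rho between E11.5 FPKM and the longest coding transcript was -0.50 over the 34 genes tested at 1 FPKM or more, and -0.33 over 8372 genes so chosen, given as descriptions across genes that share the same libraries. The 34 leave out Brca2 and Rad54l, with no completed test to E13.5f, and Fancf, under 1 FPKM. These are the longest, the highest and the lowest of the 37 genes, so rho does not cover them. Of the 5 longest, Brca2, Atm, Atr and Fancm read under 10 FPKM and Exo1 read 48.2 FPKM, while Fancf is short and low. FPKM is already divided by length, and the part of the amplification of complementary DNA in this was not tested.

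**Figure D2:**
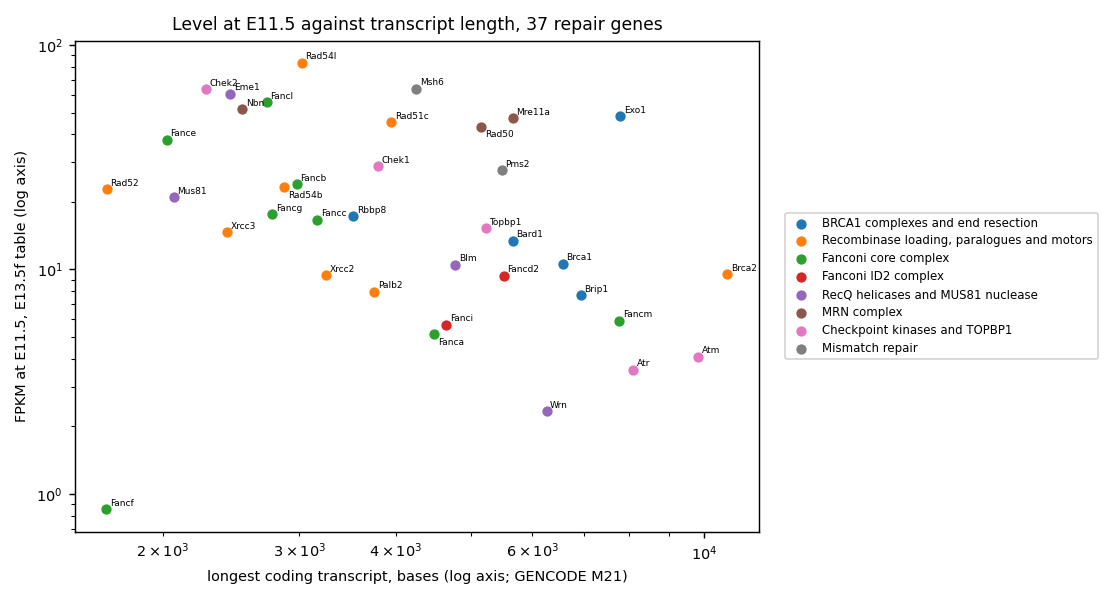
FPKM at E11.5 (vertical log axis) against the length in bases of the longest coding transcript (horizontal log axis, GENCODE M21) for the 37 repair genes, coloured by role. Points fall from upper left to lower right (rho -0.50 over 34 genes, without Brca2, Rad54l and Fancf), with Fancf apart at 0.853 FPKM.

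The first comparison followed PGCs from E9.5, when they migrate, to E11.5, when they settle in the gonad. Fance rose from 15.6 to 43.4 FPKM (log2 ratio 1.48 ± 0.34, SE), with a Cuffdiff q-value of 0.000912 in the authors' deposited table. Rad52 rose from 12.9 to 26.2 FPKM (log2 ratio 1.02 ± 0.25, SE), with a Cuffdiff q-value of 0.00227 in the authors' deposited table. These were 2 of 35 genes with a completed test, or 5.71 percent, and 0 fell; over all 12904 rows tested 5.63 percent were called, 3.71 percent as rises and 1.92 percent as falls, so the count lies near the background. Fance lies on chromosome 17 (28450474 to 28463519, mm9) and Rad52 on chromosome 6 (119852715 to 119872841).

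The size of the change alone did not single out these genes. Palb2 read 3.41 and 9.15 FPKM, and its log2 ratio of 1.42 ± 0.68 (SE) was almost that of Fance, with a q-value of 0.218 in the authors' deposited table. Rad52 had the 2nd smallest SE of the 35 genes and Fance the 3rd smallest, and Palb2 ranked 32nd. Brca2 had the smallest, with 11.0 FPKM at E9.5 and 10.9 FPKM at E11.5, a log2 ratio of -0.01 and a 95 percent interval of -0.29 to 0.26. The authors' test was not completed for Brca2 from E11.5 to E13.5f or E13.5m, nor for Rad52 to E13.5m. Whether the small SEs of Brca2 and Rad52 reflect real precision was not tested. The median SE was 0.51, and for 2 of the 35 genes the interval stayed within 2-fold either way.

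Most levels were nonetheless higher in value at E11.5: 30 of 37 genes (81.1 percent), against 66.5 percent of 12145 rows and 70.5 percent of those at 1 FPKM or more. The median change was 0.40 on the log2(FPKM + 1) scale, beside 0.29 over all rows tested. The whole table leaned the same way, with a median log2 ratio of 0.32, and 21 of the 37 genes lay above that median and 16 below it. Relative to the table's median Fance was still called, at 1.16 with an adjusted p of 0.0180 (normal test, Benjamini-Hochberg), and Rad52 was not, at 0.70 with an adjusted p of 0.0772; on that test 4.89 percent of all rows were called.

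Markers of blood moved between the same groups. In that comparison, 5 of 8 tested blood and macrophage markers fell, their summed level was 2176 FPKM at E9.5 and 31.9 FPKM at E11.5, and Ptprc was at 0 in both. The endothelial and mesenchymal markers summed to 1.80 and 14.0 FPKM, with 2 of 5 tested rising and Kdr at 0 in both. Germ cell markers summed to 2352 and 3140 FPKM, with 3 of 8 rising (Dazl, Ddx4 and Sycp3) and 0 at 0. Gonadal soma markers summed to 2.35 and 2.57 FPKM, with 0 of 4 tested called and Gata4, Foxl2, Cyp17a1 and Hsd3b1 at 0 in both. The part of these cells in the levels of the repair genes was not tested.

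From E11.5 to E13.5f, Fance was again the 1 gene called. It rose from 37.8 to 60.8 FPKM (log2 ratio 0.69 ± 0.24, SE), with a Cuffdiff q-value of 0.0415 in the authors' deposited table. That was 1 of 35 tested genes, 2.86 percent, and 0 fell, whereas 12 percent of all 12448 rows tested were called, 9.34 percent as rises and 2.68 percent as falls. Relative to the table's median log2 ratio of 0.19, Fance was not called (0.50, adjusted p of 0.178 by the normal test); that test called 11.1 percent of all rows and 0 of these genes.

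Larger differences than that of Fance had larger errors. Atr read 3.56 and 9.46 FPKM, a log2 ratio of 1.41 ± 0.53 (SE), with a q-value of 0.0576 in the authors' deposited table. Fancg, another core complex subunit, read 17.6 and 34.1 FPKM, a log2 ratio of 0.95 ± 0.37 (SE), with a q-value of 0.0725 there. Brca2 read 9.50 and 22.8 FPKM, and the authors' test was not completed for it.

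Of the 3 MRN subunits 3 were higher in value at E13.5f, by log2 ratios of 0.61 for Rad50, 0.67 for Nbn and 0.73 for Mre11a, and 0 of them were called. The helicases and MUS81 nuclease leaned the other way, with 3 of 4 lower in value, as did Msh6, at 63.8 and 34.9 FPKM with a log2 ratio of -0.87 ± 0.47 (SE). In all, 27 of 37 values were higher (73.0 percent, against 61.6 percent of 11989 rows), and the median change was 0.29 on the log2(FPKM + 1) scale beside 0.22 over all rows tested. At an unadjusted p under 0.05 there were 4 genes, 11.4 percent of those tested, beside 26.5 percent of all rows. Germ cell markers summed to 2731 and 4128 FPKM, with 1 of 7 tested rising (Dazl, from 309 to 1421 FPKM) and 0 falling. Of other cells' markers, blood summed to 27.8 and 5.75 FPKM (1 of 7 tested fell, Ptprc at 0 in both), endothelium and mesenchyme to 12.2 and 1.84 FPKM (2 of 4 fell) and gonadal soma to 2.24 and 2.75 FPKM (0 of 4 called, Cyp17a1 and Hsd3b1 at 0 in both), and their part was not tested.

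From E11.5 to E13.5m, 0 of 33 tested genes were called by Cuffdiff, beside 4.88 percent of all 12311 rows tested (2.94 percent higher, 1.94 percent lower); relative to the table's median the normal test called 0 of the genes and 5.36 percent of all rows. At an unadjusted p under 0.05 there were 2, 1 in each direction, or 6.06 percent against 17.2 percent of all rows. Msh6 read 65.4 and 32.5 FPKM, a log2 ratio of -1.01 ± 0.47 (SE), with a q-value of 0.235 in the authors' deposited table. Rad50 read 44.4 and 79.7 FPKM, a log2 ratio of 0.84 ± 0.41 (SE), with a q-value of 0.251 there.

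Fance read 38.7 and 44.4 FPKM in this table, a log2 ratio of 0.20 ± 0.24 (SE). Rad52 read 23.4 and 25.4 FPKM with no completed test, as for Brca2, Rad54l and Xrcc3. Of the 37 genes 22 were higher in value and 15 lower, and the median change was 0.12 on the log2(FPKM + 1) scale beside 0.05 over all rows tested. The median SE was 0.48, and the interval stayed within 2-fold for 2 of 31 genes, so a 2-fold change in some direction was mostly not excluded. Germ cell markers summed to 2798 FPKM at E11.5 and 5464 FPKM at E13.5m, with 1 of 7 tested rising and 1 falling. Gonadal soma markers summed to 2.29 FPKM at E11.5 and 22.2 FPKM at E13.5m, with 1 of 8 tested rising and Foxl2 at 0 in both. Blood markers summed to 28.5 and 37.1 FPKM, with 0 of 6 called and Gata1 and Ptprc at 0 in both, and endothelial and mesenchymal markers to 12.5 and 1.38 FPKM, with 1 of 4 falling. The part of these cells in the repair gene levels was not tested.

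The difference between E13.5m and E13.5f was tested as the difference of the log2 ratios to E11.5, and 0 of 31 genes were called, beside 0.169 percent of 10677 rows. At an unadjusted p under 0.05 there were 0 genes, against 3.76 percent of all rows. Fance differed by -0.49 ± 0.34 (SE), lower in E13.5m, with a 95 percent interval of -1.15 to 0.18. The extremes were Bard1 at -0.90 and Fancf at 0.88 on the log2 scale. Of the 37 genes 30 were lower in value in E13.5m, and 66.9 percent of all rows were; the median difference was -0.19 for the genes and -0.24 for all rows. The median SE of 0.66 leaves room for differences of more than 2-fold. Both ratios share the E11.5 libraries, whose error is counted in each, so these SEs and intervals are too wide. With 60 percent of the smaller variance taken as shared, 2 genes had an unadjusted p under 0.05 (normal test). The smallest adjusted p was then 0.336 (Benjamini-Hochberg), and 0 genes were called. The E13.5f group has no sample title.

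**Figure D3:**
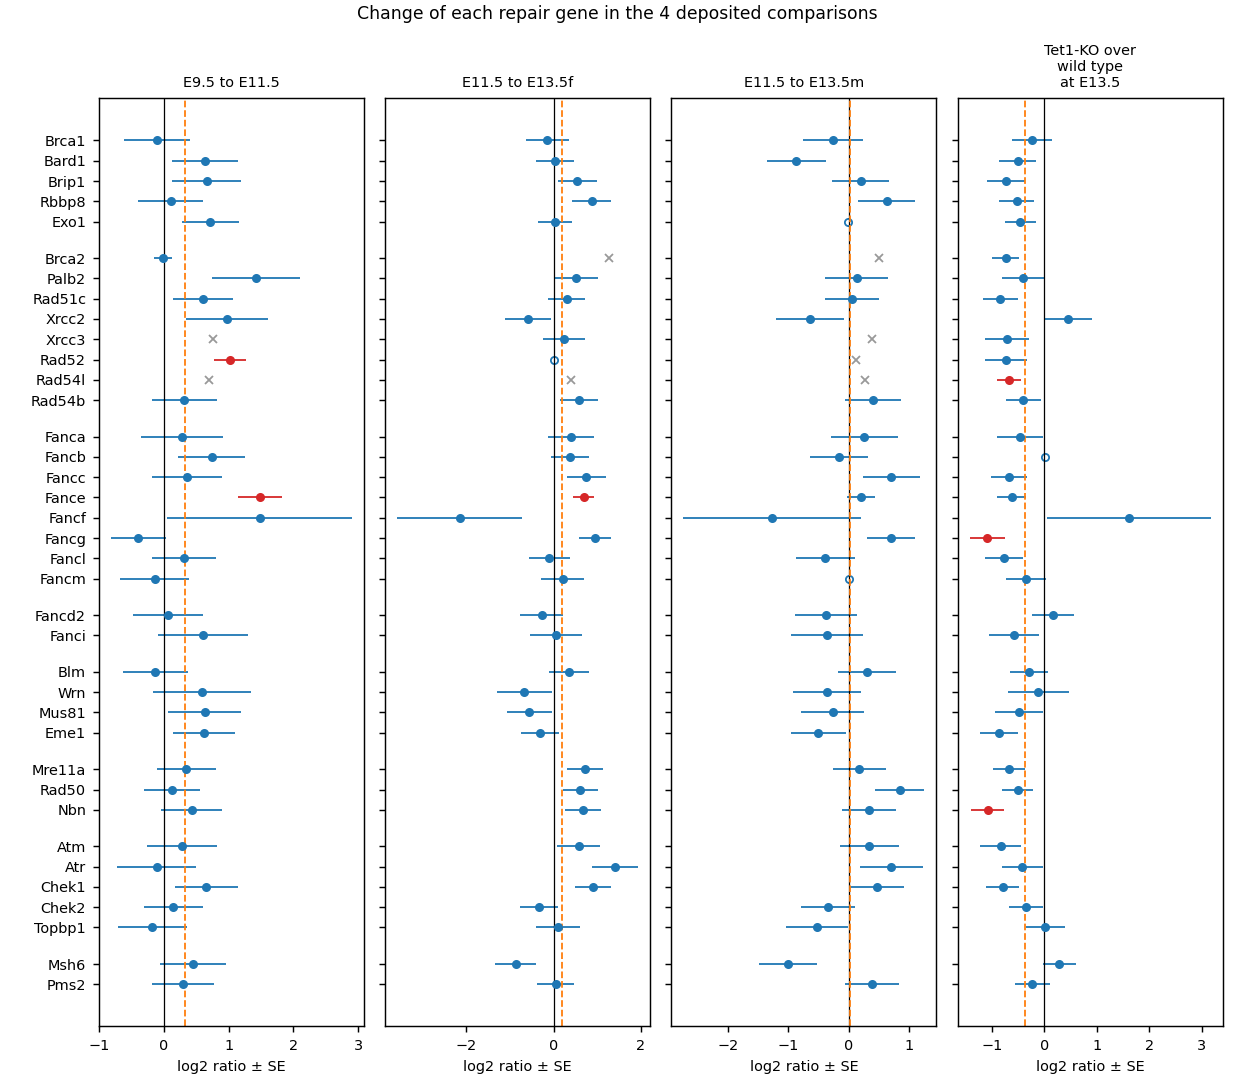
Log2 ratio with its SE (horizontal axis) for each of the 37 repair genes in the 4 deposited comparisons. Red marks the authors' calls, blue tested genes not called, open circles tested genes with no SE, grey crosses genes with no completed test, and the dashed line the table's median ratio. Rad52 and Fance are red at E9.5 to E11.5, Fance at E11.5 to E13.5f, and Rad54l, Fancg and Nbn, to the left of 0, in Tet1-KO.

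In Tet1-KO cells Tet1 itself read 0.218 FPKM against 6.36 FPKM in wild type, a log2 ratio of -4.87 ± 0.67 (SE). Of the 37 genes 3 fell and 0 rose. Nbn, the MRN subunit that recruits ATM, read 86.1 FPKM in wild type and fell to 40.7 FPKM (log2 ratio -1.08 ± 0.32, SE; Cuffdiff FDR 0.0183 in the authors' deposited table). Fancg fell from 35.4 to 16.6 FPKM (log2 ratio -1.09 ± 0.33, SE; FDR 0.0245 in the authors' deposited table). Rad54l fell from 118 to 74.0 FPKM (log2 ratio -0.67 ± 0.23, SE; FDR 0.0486 in the authors' deposited table).

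The 3 calls were 8.11 percent of the genes, beside 6.16 percent of all 16394 rows called, 5.48 percent as falls and 0.677 percent as rises. Every row of that table counted as tested, whereas 10325 of them were at 1 FPKM or more in both groups. Shares over those 10325 alone were not computed, so the shares of all rows by the deposited test also cover genes hardly read. An excess over expressed genes therefore cannot be read from them. At an unadjusted p under 0.05 there were 13 genes, all 13 lower, which is 35.1 percent against 21.4 percent of all rows. Relative to the table's median there were 3 (Nbn and Fancg lower, Msh6 higher), 8.33 percent against 15.8 percent of all rows, so the count of 13 depends on the lean of the table. Brca2 was just past the threshold, at 23.9 against 14.3 FPKM (log2 ratio -0.74 ± 0.25, SE; FDR 0.0537 as deposited by the authors). Rad54l was called on the smallest SE of the 36 genes with one, while ranking 15th by size of change. Its test was not completed in the stage comparisons, and whether this SE reflects real precision was not tested.

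The table as a whole leaned down, with a median log2 ratio of -0.38. Of the 37 genes 31 were lower in value (83.8 percent), against 71.0 percent of all rows and 74.4 percent of those at 1 FPKM or more. The median change was -0.47 on the log2(FPKM + 1) scale, beside -0.21 over all rows tested and -0.34 over those at 1 FPKM or more. Relative to the table's median 25 genes lay below and 12 above, and 0 were called by the normal test, which called 3.5 percent of all rows: Nbn was at -0.70 (adjusted p of 0.228), Fancg at -0.72 (adjusted p of 0.248) and Rad54l at -0.30 (adjusted p of 0.570).

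By role, the 5 BRCA1 group genes, the 4 helicase and nuclease genes and the 3 MRN genes were all lower in value in Tet1-KO, with median log2 ratios of -0.51, -0.39 and -0.68. The recombinase loading group had 7 of 8 lower, the core complex 6 of 8 and the checkpoint group 4 of 5. The FANCI and FANCD2 pair and the mismatch repair pair each had 1 of 2 lower, with median log2 ratios of -0.21 and 0.03. Of all rows at 1 FPKM or more 74.4 percent were lower, with a median log2 ratio of -0.38. Relative to that median Brca1, Blm and Wrn lay above, at 0.14, 0.08 and 0.26. The other BRCA1 group, helicase and nuclease, and MRN genes lay below it. The 6 genes higher in value were Xrcc2, Fancb, Fancd2, Fancf, Topbp1 and Msh6, and 0 of them were called. Msh6 read 36.2 FPKM in wild type against 44.1 FPKM (log2 ratio 0.29 ± 0.32, SE).

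**Figure D4:**
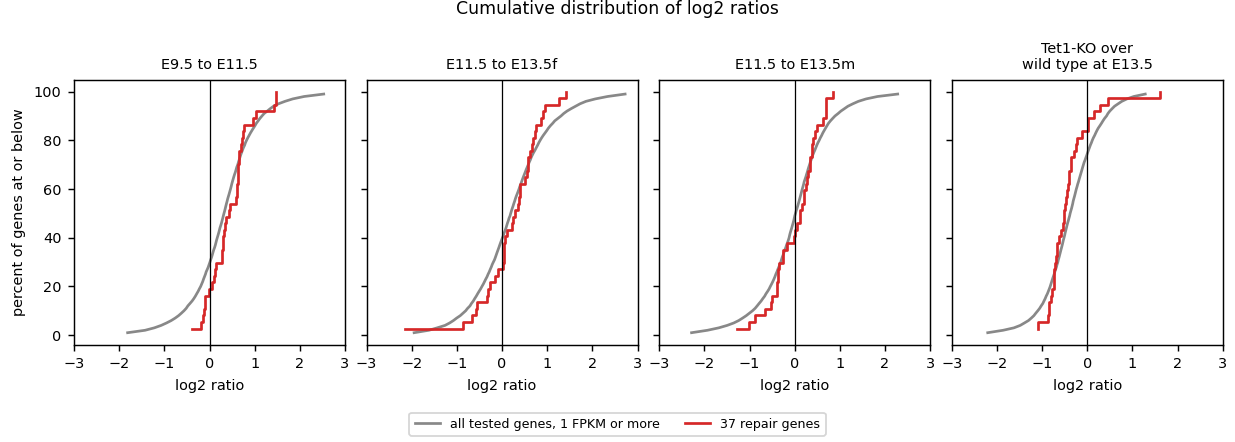
Cumulative share in percent (vertical axis) of the 37 repair genes (red) and of all tested genes at 1 FPKM or more (grey, percentiles) at or below each log2 ratio (horizontal axis), for the 4 comparisons. The curves lie close together, with table medians of 0.32, 0.19, 0.02 and -0.38, and in Tet1-KO the red steps lie left of the grey curve around the middle.

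The called genes can be set side by side over the tables. The 3 stage tables share E11.5, and a level at E13.5f and the WT level may rest on the same libraries, so a rise to E13.5f and a fall in Tet1-KO are not independent. Fancg read 26.6 and 20.2 FPKM from E9.5 to E11.5, 17.6 and 34.1 FPKM from E11.5 to E13.5f, 18.0 and 29.3 FPKM from E11.5 to E13.5m, and 35.4 and 16.6 FPKM in wild type and Tet1-KO. For Nbn the same pairs were 44.3 and 59.5, 51.7 and 82.3, 53.0 and 66.9, and 86.1 and 40.7 FPKM. In the knockout table Fance read 63.4 and 41.1 FPKM (log2 ratio -0.63 ± 0.28, SE) and Rad52 read 23.9 and 14.4 FPKM (log2 ratio -0.73 ± 0.40, SE), and neither was called. In the stage tables the Rad54l test was not completed in any of the 3 comparisons.

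The 3 genes called in Tet1-KO share a chromosome, a feature noticed after their values were seen. Nbn (15885113 to 15919736, mm9), Fancg (43015208 to 43023173) and Rad54l (115748069 to 115796295) lie on chromosome 4, which holds 4 of the 37 genes, the other being Rad54b. Over all 1037 rows on chromosome 4, 5.88 percent were called, close to the 6.16 percent of the whole table.

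Reads of some genes cannot be told from those of neighbours, since no strand-marking step is given in the sources used here. By GENCODE M21, exons of 14 of the 37 genes overlap those of another gene, 13 on the opposite strand and 2 on the same strand, with Rad54b sharing 2068 bases with Fsbp. Rad54l shares 128 bases with Lrrc41 on the opposite strand, and the authors' tables put both in 1 locus. Lrrc41 was not called in Tet1-KO, at 74.2 against 56.6 FPKM (log2 ratio -0.39 ± 0.30, SE).

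Marker levels of germ cells and other cells also differed between wild type and Tet1-KO. Germ cell markers summed to 4326 FPKM in wild type against 2717 FPKM, 2 of 8 fell (Dazl and Sycp3) and 0 were at 0. Gonadal soma markers summed to 2.58 and 7.48 FPKM over the 7 of 10 found, with 0 called and Hsd3b1 at 0 in wild type. Blood markers summed to 3.96 and 0.639 FPKM over the 4 found, with 0 called and Hbb-y and Gata1 at 0 in Tet1-KO. Endothelial and mesenchymal markers summed to 1.71 and 1.21 FPKM over the 6 found, with 2 called as falls and Kdr and Tek at 0 in Tet1-KO. The part of these in the repair genes was not tested.

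Other genes of the same pathways were counted from a list of 50, of which 45 were found in the stage tables and 43 in the knockout table. From E9.5 to E11.5, 2 of 44 tested rose and 0 fell: Recql, a RecQ helicase gene, from 23.1 to 49.3 FPKM and Rad18, a ubiquitin ligase gene of damage tolerance, from 36.7 to 69.3 FPKM. Relative to the table's median Recql was called and Rad18 was not. The authors' test was not completed for Recql or Rad18 from E11.5 to E13.5f. From E11.5 to E13.5f, 3 of 42 rose and 0 fell, among them Uimc1 (RAP80, which binds ubiquitin chains at breaks) from 15.4 to 49.5 FPKM and Rpa2, a subunit of the protein that coats resected DNA, from 385 to 814 FPKM. The third of these was Bod1l, from 5.67 to 15.8 FPKM. Relative to the median Uimc1 was the 1 rise called, and Top3a, at 9.51 and 3.84 FPKM, was called as lower. From E11.5 to E13.5m 0 of 41 were called. In Tet1-KO 4 of 43 fell and 0 rose: Uimc1 from 51.6 to 19.8 FPKM, the ubiquitin ligase gene Rnf8 from 216 to 102 FPKM, the checkpoint clamp gene Rad1 from 169 to 85.2 FPKM and Rad18 from 104 to 59.7 FPKM. All 4 falls were lost relative to the table's median, where 0 of the list were called. The shares of all rows called were 5.63, 12, 4.88 and 6.16 percent in the 4 comparisons, and relative to the medians 4.89, 11.1, 5.36 and 3.5 percent.

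End joining without a template, the other main route of break repair, had 1 of 10 listed genes rising from E9.5 to E11.5 and 1 of 9 tested rising from E11.5 to E13.5f. It was Xrcc6, which encodes the end-binding protein Ku70, from 61.7 to 195 FPKM and from 170 to 383 FPKM; it fell from 402 to 178 FPKM in Tet1-KO, as did Aplf from 53.3 to 25.8 FPKM, 2 of 10. Relative to the tables' medians 0 end joining genes were called in any comparison, against the same shares of all rows. From E11.5 to E13.5m 0 of 9 were called. Of 16 DNA replication genes, listed for proliferation, 16, 15 and 15 were tested in the 3 stage comparisons, and 0 were called there. In Tet1-KO 1 of 16 fell, the helicase cofactor gene Cdc45 from 215 to 118 FPKM. The authors' test was not completed for Cdc45 or Aplf from E11.5 to E13.5f. Relative to the medians Cdc45 was not called, and Mcm4, a helicase subunit gene, was called as lower from E11.5 to E13.5f (150 and 76.3 FPKM) and as higher in Tet1-KO (80.4 and 122 FPKM).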

How the data were processed

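Messenger RNA was measured in 12 PGC libraries made from 400 to 5000 cells (E9.5, E11.5, E13.5m) or 500 to 2000 cells (WT and Tet1-KO), with amplified complementary DNA, per the labels' protocols. Per the submitters' processing notes, the tools were TopHat 1.3.1 with Bowtie, and Cuffdiff and Cufflinks (1.0.3 and 1.2.1), on the mm9 build. The authors deposited 4 Cuffdiff tables, and pooled the libraries of a group into 1 FPKM value, per the file headers. The p-value and q-value or FDR in each are the authors' own, deposited over all rows; the stage tables also hold the authors' deposited test statistic, a score. Of the FDR values 2182 exceed 1, up to 1.06.

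Calls are the deposited q-value or FDR at 0.05 over rows with a completed test. Log2 ratios were computed from the FPKM values, and the SE is that ratio over the deposited statistic (for Tet1-KO, over the normal deviate that the authors' p-value gives), where the deviate passed 0.05. E9.5 and E13.5m levels were put on the E13.5f table's scale by 0.870 and 0.976, the constant ratios of the E11.5 columns. The test against the table's median (rows at 1 FPKM or more in both groups), and the E13.5m against E13.5f test, were normal, two-sided and adjusted by Benjamini-Hochberg over all rows; ignoring the shared E11.5 libraries makes the latter conservative. Both were run on simulated ratios with normal errors drawn at the same SEs, which cannot show whether those SEs are right. Values in full are given for called genes and for the highest and lowest at E11.5, and up to 4 called genes of each other list are named; further genes were chosen after their values were seen.

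The genes and lists were chosen with earlier results of these data known. Gene structures came from GENCODE M21, matched by symbol, with exon overlaps found from its exon coordinates, and promoters from RefSeq (GRCm38.p6). The software was Python 3.11.15 with pandas 2.3.3, scipy 1.17.1, numpy 2.4.6 and, for plots, matplotlib 3.10.9. Alternatives were centring, a pseudocount of 0.1, 1 row per symbol, a minimum log2 ratio of 1, a minimum of 1 FPKM, a threshold of 0.01, a recomputed adjustment and, for E13.5m against E13.5f, removal of 60 percent of the smaller variance as shared.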

Additional observations from a re-analysis of the deposited data

How the results depend on the processing

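Centring each table on its median ratio left 1 gene called from E9.5 to E11.5 (Fance), 0 from E11.5 to E13.5f and 0 in Tet1-KO, where the test against 0 called 2, 1 and 3; by construction it removes the common lean of a table. A threshold of 0.01 gave 0 calls from E11.5 to E13.5f and 0 in Tet1-KO, and a minimum log2 ratio of 1 gave 0 from E11.5 to E13.5f. The counts kept within 1.5-fold under the other alternatives run, the E13.5m and E13.5m against E13.5f counts stayed at 0 under all, and no called gene changed direction. Centring took the median change from 0.40 to 0.11 (E9.5 to E11.5), from 0.29 to 0.12 (E11.5 to E13.5f) and from -0.47 to -0.13 (Tet1-KO), and from 0.12 to 0.10 for E13.5m. It turned the sign of 9, 6, 1 and 6 of the 37 log2 ratios from E9.5 to E11.5, to E13.5f, to E13.5m and in Tet1-KO. The other alternatives moved the medians by less than 1.5-fold. No paired analysis was possible because each table holds 1 pooled value per group, and leaving out a library was not run for the same reason. Depth is unknown, and for at most 6 of the genes in a comparison was the 95 percent interval of the ratio within 2-fold.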
